A study of Mus musculus with 8 samples.

Results

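The genes described here encode the SR proteins, a family of splicing factors, and comprised Srsf1, Srsf2, Srsf3, Srsf4, Srsf5, Srsf6, Srsf7, Srsf9, Srsf10 and Srsf11. They were found by gene symbol in the deposited table, which gave 10 genes of 55471, and all 10 were among the 16524 genes that entered the tests. The RNA came from mouse motor neurons differentiated from HBG3 embryonic stem cells, a line with a GFP reporter under the HB9 promoter, and kept for 3 days after plating on an adhesive coating. Pull-downs captured the long noncoding RNA Lhx1os with 20-nt biotinylated antisense oligonucleotides in ODD and EVEN sets, and LacZ probes against a bacterial mRNA served as the control. Input was the RNA before capture, and the labels give no other difference between the 4 groups. Each group had 2 libraries, called replicate 1 and replicate 2 after the 2 independent pull-down experiments. The labels give no sorting step, so the cultures could hold other cell types.

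SR proteins have RNA recognition motifs that bind short sequences in exons and a domain rich in arginine and serine that recruits the spliceosome, and most of them favour inclusion of the exon they bind. Their own transcripts are known for an autoregulatory circuit, in which exons that carry early stop codons, or introns that are kept, send the mRNA to nonsense-mediated decay or hold it in the nucleus. In GENCODE release M21, 9 of the 10 genes had a transcript annotated for nonsense-mediated decay, against 27.9% of the 13455 tested protein-coding genes. At least 1 retained-intron transcript was annotated for 8 of the 10, against 57.4% of coding genes. Srsf11 had 11 retained-intron transcripts, Srsf3 had 4, Srsf5 and Srsf7 had 3 each, and Srsf9 and Srsf10 had 0.

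The libraries had total counts between 7632775 and 24628435. FPKM is fragments per kilobase of gene, scaled to the library total. All 9 motor neuron markers and all 5 pan-neuronal markers reached 1 FPKM in at least 1 library of every group, and 0 of the 4 pluripotency markers did. Isl2 was at 0.444 to 0.944 FPKM in the replicate 1 libraries. The level was also reached by all 6 progenitor and dividing-cell markers and 4 of the 6 glial markers. Depending on the group, 4 or 5 of the 6 spinal interneuron markers and 4 or 5 of the 5 mesenchymal markers reached it. The target was recovered unequally in the experiments. Lhx1os stood at 79.5 and 66.0 times the CPM (counts scaled to the library total) of the same experiment's Input in ODD and EVEN replicate 1, at 12 and 8.56 times in replicate 2, and at 0.910 and 0.820 times in the LacZ libraries.

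The title of the series concerns low-complexity repeats in RNA-RNA contacts, so the repeats in the coding sequences of the SR genes are shown here. Dustmasker at level 20 marked a stretch in 4 of the 10 longest coding sequences and none in the other 6 (Srsf3, Srsf5, Srsf6, Srsf7, Srsf9 and Srsf10). The coding sequences of other genes were not masked, so this count has no background share beside it. Srsf4, which codes for the member with the longest arginine-serine domain, had 138 of 1473 nt masked in 2 stretches. Srsf1 had 61 of 759 nt masked and Srsf2 had 25 of 663 nt, and a stretch of 60 nt is shown for Srsf11. Below, the stretches are in capitals with flanks of 10 nt in lower case, on the strand of the transcript and with GRCm38 coordinates of the whole run. The Srsf2 and Srsf11 runs are joined across introns that lie within the interval given.
Srsf1 coding stretch, chr11:88048557-88048637, plus strand: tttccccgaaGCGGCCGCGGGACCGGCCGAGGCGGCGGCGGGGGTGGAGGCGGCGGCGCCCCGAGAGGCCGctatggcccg
Srsf2 coding stretch, chr11:116852330-116852610, minus strand: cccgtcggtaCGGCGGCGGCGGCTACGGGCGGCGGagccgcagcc
Srsf4 first coding stretch, chr4:131900485-131900581, plus strand: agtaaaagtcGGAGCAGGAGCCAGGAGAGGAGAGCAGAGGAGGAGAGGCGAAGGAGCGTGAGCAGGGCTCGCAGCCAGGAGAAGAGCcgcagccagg
Srsf4 second coding stretch, chr4:131900703-131900783, plus strand: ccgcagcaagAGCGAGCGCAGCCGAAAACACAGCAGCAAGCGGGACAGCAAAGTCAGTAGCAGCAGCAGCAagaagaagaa
Srsf11 coding stretch, chr3:158012385-158012795, minus strand: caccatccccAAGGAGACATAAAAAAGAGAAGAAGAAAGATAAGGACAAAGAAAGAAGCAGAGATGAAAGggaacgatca
The Srsf1 and Srsf2 stretches were 90.2% and 92% G and C. Those of Srsf4 were 66.2% and 59.0% G and C, and that of Srsf11 was 33.3%. Purines made up 80.5% and 68.9% of the Srsf4 stretches, 90% of that of Srsf11, 65.6% of that of Srsf1 and 64% of that of Srsf2. Over the longest annotated transcript, untranslated parts included, the masked share of the 10 genes had a median of 3.73% (range 0.957% to 6.40%), against a median of 2.07% over the tested coding genes.

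Shared runs with Lhx1os were searched in the longest annotated transcript of each gene, and its other transcripts were not searched. There the longest stretch that a member shared with Lhx1os in the same orientation was 17 nt, in Srsf5, and 9 to 11 nt in the other 9 members. It is shown because the ODD and EVEN probes were designed against Lhx1os; the sequences of the probes themselves were not used here. In capitals throughout, as all of it matches:
Srsf5 and Lhx1os shared run: CTGTCCTGGAACTCACT
In Srsf5 it lies at chr12:80947137-80947153 on the plus strand, in an exon of retained-intron and nonsense-mediated decay transcripts and outside the coding sequence. In Lhx1os it lies at chr11:84535137-84535153 on the plus strand. A run of at least 17 nt was found in 3.73% of the 15369 tested genes for which it was computed. In these longest transcripts no member shared more than 12 nt with the complement of Lhx1os, the length found in Srsf5.

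The SR genes were among the more strongly expressed genes of these cultures. In FPKM, which allows levels of different genes to be compared per length, the means of the Input libraries ran from 24.1 for Srsf11 to 108 for Srsf2, a 4.50-fold range, against a median of 7.40 over the tested coding genes. The length used is that of all annotated exons merged, so the order depends on the annotation. Retained-intron transcripts alone supply 58.0% of this length in Srsf11, 59.2% in Srsf3 and 0% in Srsf9 and Srsf10. By CPM, the Input means were 205 for Srsf11, 205 for Srsf10 and 48.0 for Srsf9, the lowest of the 10. Srsf2, the SC35 protein that marks nuclear speckles, had 99.0 and 118 FPKM in the Input libraries. Srsf1, the founding family member, had 79.8 and 86.0, and Srsf6 had 62.9 and 66.6. These 3 genes did not overlap with their neighbours in the order of Input levels. Srsf5 followed with 42.0 and 59.4 and overlapped with Srsf7 (37.8 and 42.1), and Srsf7 with Srsf3 (37.8 and 40.8). Srsf10 (29.1 and 29.0) overlapped with Srsf9 (26.1 and 31.6), and Srsf4 (22.3 and 26.0) with Srsf11 (21.6 and 26.6). The lowest of the 10 in FPKM, Srsf11, stood above 83.5% of the tested coding genes. Together they held 0.216% to 0.260% of a library's counts.

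**Figure D1:**
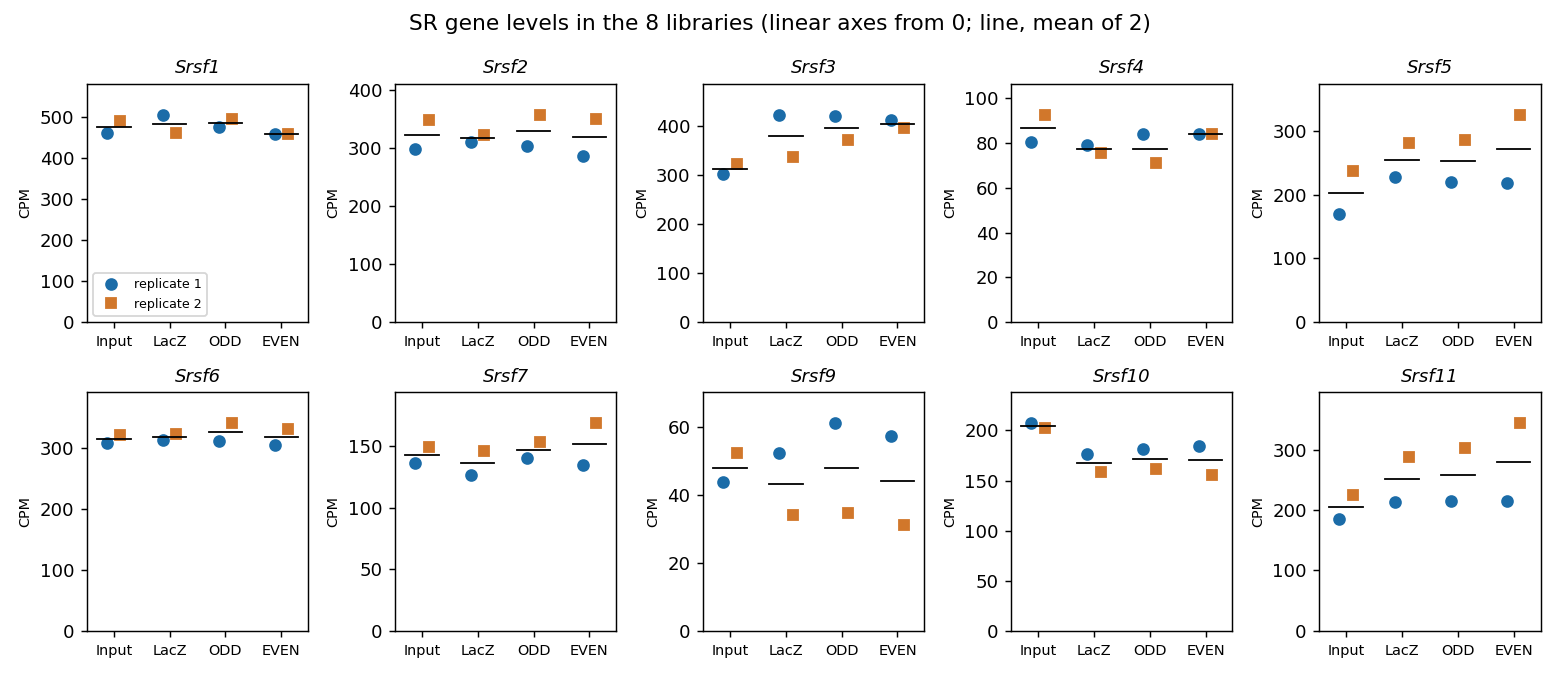
Level of each SR gene in CPM (linear axes from 0) in the 8 libraries, by group; circles are replicate 1, squares replicate 2 and the line is the mean of 2. Srsf3 lies higher and Srsf10 lower in all 6 pull-down libraries than in both Input libraries, and the Srsf9 replicates lie in opposite order in Input and in the pull-downs.

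The first comparison asked which of these mRNAs were recovered above their level in Input, the comparison by which the series assessed enrichment. No SR gene was called in LacZ, ODD or EVEN against Input, or in the mean of the 3 pull-downs against Input, by edgeR's quasi-likelihood test at an adjusted p of 0.05. Over all 16524 genes, 7.41%, 6.84% and 5.66% were called for LacZ, ODD and EVEN and 10.2% for the mean. At an unadjusted p under 0.05 the count was also 0 of 10 in these 4 comparisons, where 18.9%, 18.3%, 18.8% and 24.4% of all genes passed, and DESeq2 and limma called 0 members in each. For the mean of the 3 pull-downs, the members' log2 fold changes ran from -0.27 to 0.36 with a median of 0.01, beside a median of -0.02 over all genes, and 6 of 10 were above 0.

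Srsf3 (ENSMUSG00000071172, chr17:29032628-29043373, plus strand) encodes the smallest SR protein, an adaptor for the mRNA export receptor. Its levels, replicate 1 first, were 303 and 322 CPM in Input, 423 and 336 with LacZ probes, 419 and 371 with ODD probes, and 412 and 396 with EVEN probes. All 6 pull-down libraries were above both Input libraries, a pattern that 17.7% of tested genes showed. The means were 312 ± 13.4 CPM (SD, n = 2) in Input and 380 ± 61.2, 395 ± 34.4 and 404 ± 10.9 (SD, n = 2 each) in LacZ, ODD and EVEN. The log2 fold change of the mean pull-down over Input was 0.33 (SE 0.15, adjusted p 0.224 by edgeR), with a 95% interval from -0.01 to 0.67.

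Srsf10 (ENSMUSG00000028676, chr4:135855747-135869908, plus strand) encodes an SR protein that represses splicing when it is dephosphorylated. Its levels were 207 and 203 CPM in Input, 176 and 158 with LacZ probes, 182 and 162 with ODD probes, and 185 and 156 with EVEN probes. All 6 pull-down libraries were below both Input libraries, as for 13.5% of tested genes. The log2 fold change was -0.27 (SE 0.13, adjusted p 0.267 by edgeR), with a 95% interval from -0.58 to 0.04. Of the 10 genes it was the furthest below Input in this comparison.

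Srsf5 (ENSMUSG00000021134, chr12:80945504-80950507, plus strand), the gene with the run shared with Lhx1os, had 170 and 237 CPM in Input, 228 and 282 with LacZ probes, 221 and 286 with ODD probes, and 219 and 326 with EVEN probes. Each pull-down library was above the Input library of its own experiment, but the replicate 1 pull-downs were below Input replicate 2. The LacZ libraries, captured with probes that do not target Lhx1os, lay in the same range as ODD and EVEN. The log2 fold change of the mean pull-down was 0.35 (SE 0.23, adjusted p 0.411 by edgeR).

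Srsf11 (ENSMUSG00000055436, chr3:158010473-158036639, minus strand), an SR-related factor with a part in the splicing of neuronal microexons, had 185 and 225 CPM in Input, 213 and 288 with LacZ probes, 214 and 302 with ODD probes, and 214 and 343 with EVEN probes. As for Srsf5, each pull-down library exceeded its own Input and the groups overlapped across experiments. The log2 fold change was 0.36 (SE 0.25, adjusted p 0.445 by edgeR).

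With the replicate number as a second term (a block), which compares each pull-down with the Input of its own experiment, Srsf5 was called in the mean of the pull-downs (log2 fold change 0.36, SE 0.10, adjusted p 0.0324) and in EVEN against Input (0.42, SE 0.12, adjusted p 0.0494), and in neither LacZ (adjusted p 0.0927) nor ODD (0.104). Srsf11, Srsf10 and Srsf3 had adjusted p of 0.0540, 0.0574 and 0.0714 in the mean. This fit called more of all genes too, with 19.7%, 19.2% and 19.3% for LacZ, ODD and EVEN and 29.2% for the mean, so 1 of 10 members was below the background share. The Srsf5 call ended when each library's trend on GC content was also removed. With the trend fitted on all genes, the median of all genes moved from -0.03 to 0.08, 32.8% of genes were called in the mean and Srsf5 was at -0.15 (adjusted p 0.286) and Srsf3 at -0.06 (adjusted p 0.690). There Srsf1 (-0.43), Srsf7 (-0.28) and Srsf10 (-0.59) were called lower. With the trend fitted on coding genes alone, 28.1% of genes were called, Srsf5 was at 0.26 (adjusted p 0.0775), and Srsf10 was the one member called, at -0.35 (adjusted p 0.0271).

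**Figure D2:**
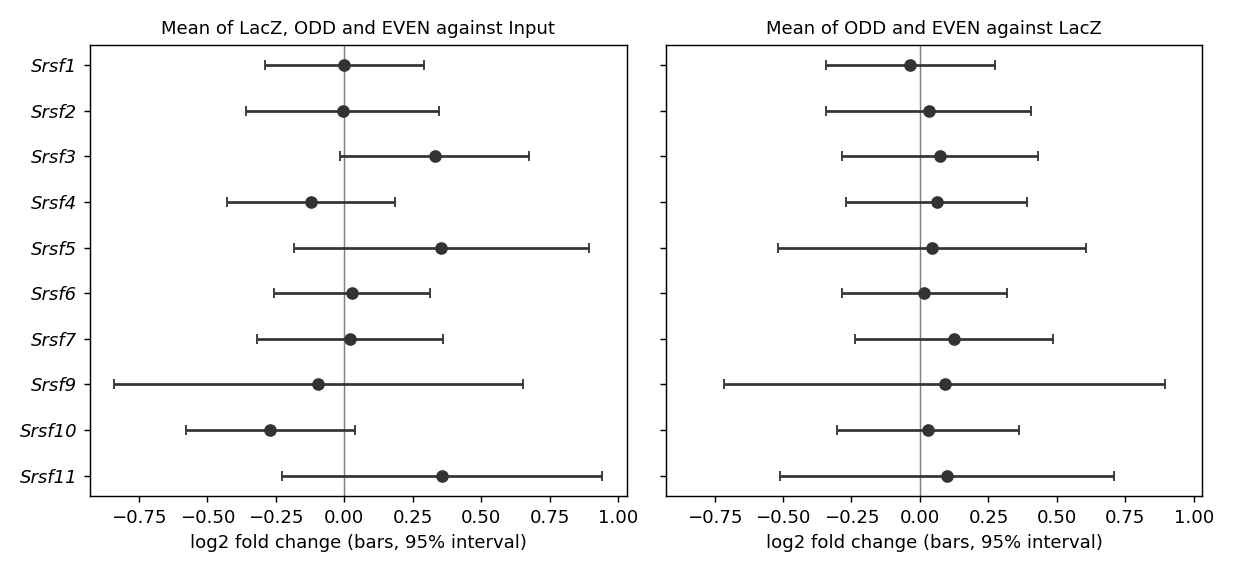
Log2 fold change of each SR gene (points) with its 95% interval (bars) from edgeR's fit on all 8 libraries, for the 3 pull-downs averaged against Input (left) and ODD and EVEN averaged against LacZ (right). Every interval includes 0; Srsf3, Srsf5 and Srsf11 have the 3 highest and Srsf10 the lowest value on the left, and on the right the values lie between -0.03 and 0.12.

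Of the other 6 members, 5 lay close to their Input level and Srsf9 spread to both sides of it. Srsf1 (ENSMUSG00000018379, chr11:88047373-88053755, plus strand) had 462 and 490 CPM in Input and 459 to 507 in the pull-downs, with a log2 fold change of 0.00 (SE 0.12, 95% interval -0.29 to 0.29). Srsf2 (ENSMUSG00000034120, chr11:116849901-116853094, minus strand) had 297 and 348 CPM in Input and 286 to 357 in the pull-downs. Srsf6 (ENSMUSG00000016921, chr2:162931528-162937121, plus strand), an exon-enhancer-binding member, had 304 to 340 CPM over all 8 libraries. For these 3 abundant members the Input and pull-down ranges overlapped throughout. Srsf7 (ENSMUSG00000024097, chr17:80200080-80207307, minus strand), which has a zinc knuckle and like Srsf3 links mRNA to export, had 136 and 149 CPM in Input and 127 to 168 in the pull-downs. Srsf4 (ENSMUSG00000028911, chr4:131873617-131901706, plus strand) had 80.4 and 92.6 CPM in Input and 71.0 to 84.1 in the pull-downs, with a log2 fold change of -0.12 (SE 0.13). Srsf9 (ENSMUSG00000029538, chr5:115327177-115333080, plus strand), a member with a short arginine-serine domain, had 43.8 and 52.3 CPM in Input and spread from 31.0 to 61 in the pull-downs, the widest relative range of the 6. Its log2 ratio to the Input of the same experiment was 0.25 to 0.48 in replicate 1 and -0.75 to -0.60 in replicate 2. The fit by group gave a log2 fold change of -0.09 (SE 0.32). Exons on the opposite strand overlap Srsf1 (98 nt of Gm11508), Srsf2 (460 nt of Mettl23 and 288 nt of Mfsd11) and Srsf4 (1532 nt of Gm12992). The library kit marks strand, but the strand setting of the counting was not stated in the sources read. Gm12992 had 20 to 72 counts, against 614 to 1952 for Srsf4.

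The second comparison set the Lhx1os probes against the control probes, captures for which the labels give no difference other than the probe set. No SR gene was called in ODD against LacZ, EVEN against LacZ, the mean of both against LacZ, or ODD against EVEN, and 0% of all genes were called in each of these 4 comparisons by edgeR. Unadjusted p-values under 0.05 were found for 0 of 10 members, and for 170, 283, 218 and 128 of all genes. DESeq2 and limma also called 0 members. For the mean of ODD and EVEN the members lay between -0.03 (Srsf1, SE 0.13) and 0.12 (Srsf7, SE 0.15) on the log2 scale, with a median of 0.05 beside 0.01 over all genes. The 95% intervals of the fit by group give the range of differences that this fit allows. The interval of Srsf6 went from -0.29 to 0.32, that of Srsf3 from -0.29 to 0.43, that of Srsf5 from -0.52 to 0.61, and the widest, that of Srsf9, from -0.71 to 0.89. With the replicate block they were narrower, from -0.21 to 0.24 for Srsf6 and from -0.20 to 0.36 for Srsf3. The blocked interval of Srsf5 went from -0.21 to 0.28 and that of Srsf9 from -0.47 to 0.61. Within the experiments, ODD and EVEN over LacZ gave log2 ratios from -0.05 to 0.21 for Srsf5, from 0.00 to 0.25 for Srsf11 and from -0.04 to 0.24 for Srsf3. Lhx1os itself exceeded LacZ in all 4 of these libraries, yet by edgeR it was not called either for the mean (5.42 on the log2 scale, SE 1.10, p 0.00172, adjusted p 1.00), while DESeq2 called it (adjusted p 2.20e-09). The members had smaller SE than Lhx1os, from 0.13 (Srsf6) to 0.34 (Srsf9), but the adjustment over all tested genes applied to them as it did to Lhx1os. An edgeR count of 0 that takes in the target says little by itself, and the intervals above are the measure of what the members could show.

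Among the 10 genes, the position in pull-down against Input followed the number of annotated retained-intron transcripts in the fit by group. This relation was looked for after the values had been seen. Srsf11, Srsf3 and Srsf5, with 11, 4 and 3 such transcripts, had the 3 highest log2 fold changes, and Srsf10, with 0, had the lowest. The order was not strict. Srsf7, also with 3, was at 0.02, and Srsf9, with 0, was at -0.09, above Srsf4, with 1, at -0.12. Spearman's rho was 0.86 over the 10 members, which share the libraries, and 0.27 over the 13455 tested coding genes. It changed with the GC correction. With the replicate block and the all-gene GC trend removed rho was 0.20 over the members, where Srsf7 (-0.28), Srsf5 (-0.15) and Srsf3 (-0.06) lay below Srsf2 (0.16) and Srsf4 (0.15), and 0.23 over coding genes. With the trend of coding genes it was 0.80 over the members. Leaving out 1 library gave 0.63 (without EVEN replicate 2) to 0.91. The median log2 fold change of coding genes was -0.18 with no retained-intron transcript (5728 genes), -0.11 with 1, -0.05 with 2, 0.02 with 3, 0.07 with 4 and 0.17 with 5 or more (965 genes). Srsf5 and Srsf3 lay above the middle 50% of coding genes of their class, which ended at 0.24 and 0.29. Srsf11 lay within that of its class, which ended at 0.39, as did the other 7 members in theirs. Other annotated properties went the same way. Over the members rho was 0.55 with the number of transcripts, 0.44 with merged exon length and -0.41 with GC content, and over coding genes 0.25, 0.21 and -0.18. The part of each in the differences from Input was not tested.

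**Figure D3:**
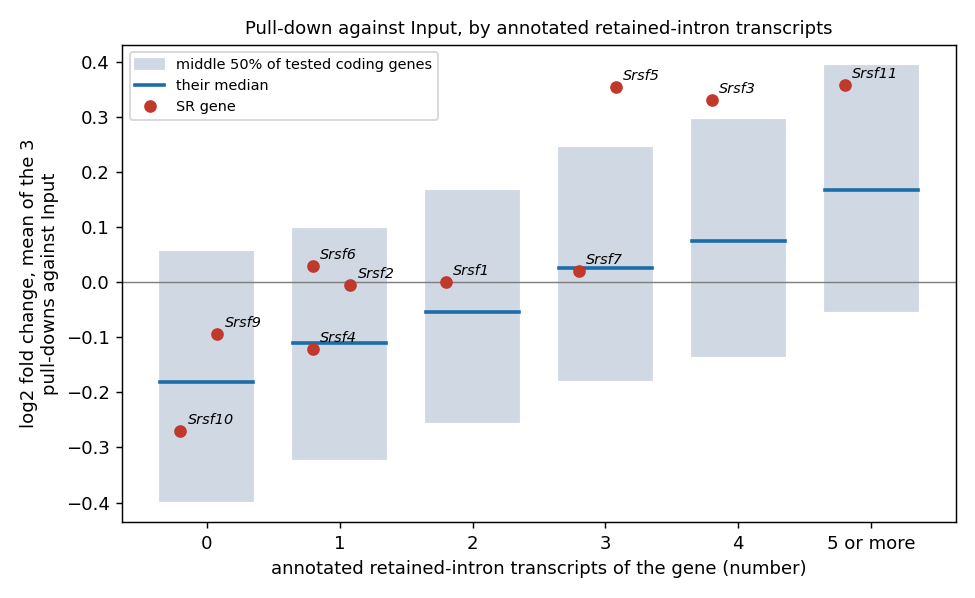
Log2 fold change of the mean of the 3 pull-downs against Input, by the number of retained-intron transcripts that GENCODE M21 annotates for a gene. Boxes hold the middle 50% of tested coding genes and the blue line is their median, from -0.18 with 0 to 0.17 with 5 or more; red points are the 10 SR genes, which go from -0.27 (Srsf10) to 0.36 (Srsf11).

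The third comparison was between the experiments. In replicate 2 against replicate 1, with group as a term, Srsf5 and Srsf11 were called and both were higher in replicate 2. By edgeR, Srsf5 differed by 0.43 on the log2 scale (SE 0.08, adjusted p 0.00972) and Srsf11 by 0.47 (SE 0.09, adjusted p 0.00984). Each side of this comparison was 1 experiment. These SE and p-values measure how alike the difference was in the 4 groups, and not the spread between independent experiments. The replicate 2 library was the higher in all 4 groups for both genes, by a log2 ratio of 0.31 to 0.57 for Srsf5 and of 0.28 to 0.68 for Srsf11. Over all genes 27.4% were called, so 2 of 10 members was below the background share. Srsf2 (0.20, adjusted p 0.113), Srsf7 (0.20, adjusted p 0.105) and Srsf6 (0.09, adjusted p 0.450) were also higher in replicate 2 in all 4 groups. Srsf10 was lower in all 4 groups (-0.15, adjusted p 0.202). Leaving out 1 ODD or 1 EVEN library ended both calls, with adjusted p from 0.0529 to 0.0638. The cultures differed too. The 9 motor neuron markers summed to 94.4 to 107 FPKM in the replicate 1 libraries and 255 to 286 in replicate 2. The 6 glial markers summed to 109 to 172 and 28.5 to 39.7, and the 6 progenitor and dividing-cell markers to 435 to 544 and 362 to 403. The sums were carried by some members. Prph, a filament protein, went from 21.9 to 29.3 FPKM in replicate 1 to 140 to 160 in replicate 2, while Mnx1 was slightly lower in replicate 2 in the 3 pull-downs. Olig2 and Sox2 were lower in replicate 2 in all 4 groups, and the dividing-cell marker Mki67 was higher in all 4. None of these markers was at 0 in both libraries of a group. The part of cell composition in the Srsf5 and Srsf11 values was not tested, and in such bulk libraries fewer cells of a type and less RNA per cell cannot be told apart.

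Srsf9 was the one member called in a test of whether the difference between experiments was the same in the pull-downs as in Input. In Input it had 43.8 CPM in replicate 1 and 52.3 in replicate 2. In the pull-downs it went the other way, from 52.2 to 34.2 CPM with LacZ probes, 61 to 34.5 with ODD probes and 57.2 to 31.0 with EVEN probes. These rested on 1062 and 1073 reads in Input, 405 and 393 with LacZ probes, 758 and 359 with ODD probes, and 676 and 345 with EVEN probes. The replicate change in the pull-downs minus that in Input was -1.03 on the log2 scale (SE 0.16, 95% interval -1.41 to -0.65, adjusted p 0.0209 by edgeR), in a test added after the values had been seen. It called 4.99% of all genes and 1 of the 10 members. The pull-downs of each experiment were set against 1 Input library. The SE, interval and p-value therefore do not measure the spread between Input libraries or between independent experiments. The other 9 members had values from -0.31 (Srsf4, adjusted p 0.279) to 0.26 (Srsf11, adjusted p 0.368). The overall replicate 2 against replicate 1 value of Srsf9, -0.51 (SE 0.19, adjusted p 0.0845), averaged these opposite changes. LacZ libraries showed it as ODD and EVEN did.

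**Figure D4:**
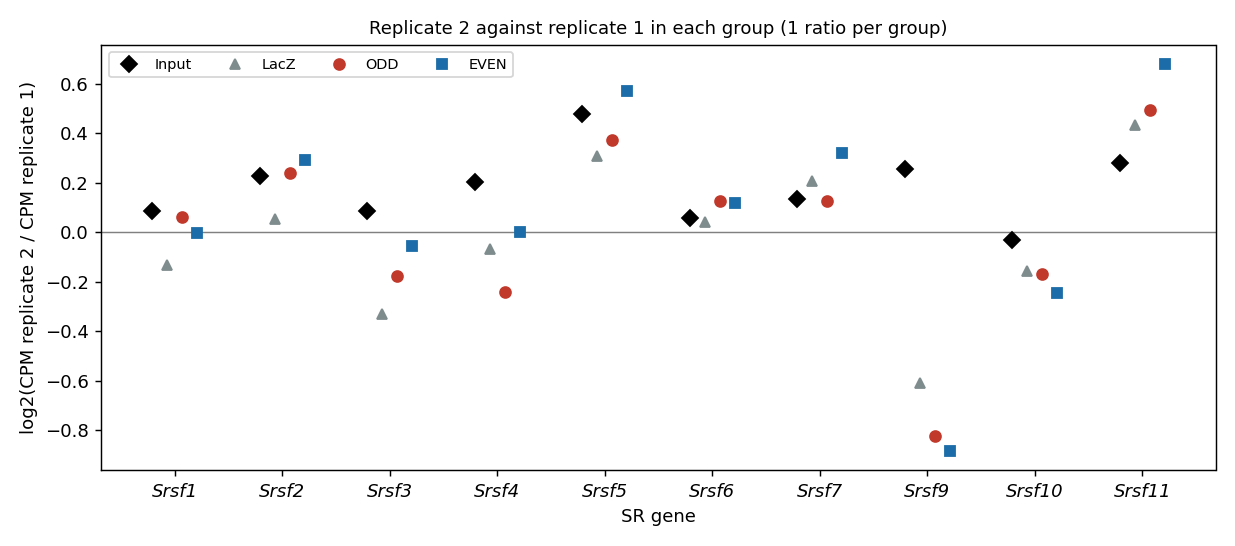
Log2 ratio of replicate 2 to replicate 1 in CPM for each SR gene, 1 point per group. Srsf5 and Srsf11 lie above 0 in all 4 groups, and Srsf9 is at 0.26 in Input and at -0.61, -0.82 and -0.88 in LacZ, ODD and EVEN.

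The genes that work with the SR proteins were taken from 5 lists. Of 26 SR-related and SR-like genes, 1 was called higher in the mean of the 3 pull-downs against Input and 0 lower, with a median log2 fold change of 0.24 beside -0.02 over all genes, of which 10.2% were called and 24.4% had an unadjusted p under 0.05. The gene was Rbm25, an RNA-binding regulator of splice site choice, with 150 and 190 CPM in Input, 280 and 291 with LacZ probes, 275 and 299 with ODD probes and 338 and 331 with EVEN probes (log2 fold change 0.83, SE 0.15, adjusted p 0.0145 by edgeR). It was called in each of the 3 pull-downs, LacZ included. With the replicate block, which called 29.2% of all genes, 4 SR-related genes were higher, among them Luc7l3 (1.20, adjusted p 0.000984), a U1-associated factor, and 1 was lower, Srsf12 (-0.72, adjusted p 0.00259), an SR-like protein. Of 12 genes for SR protein kinases and nuclear import 0 were called, with a median of 0.25 and 3 at an unadjusted p under 0.05. Their best-known members are the CLK and SRPK kinases, which phosphorylate the arginine-serine domain. With the replicate block, 6 of the 12 were called higher, among them Clk1 (1.09, adjusted p 0.000744), Prpf4b (0.77, adjusted p 0.00280) and Srpk3 (1.66, adjusted p 0.0453). Srpk3 had between 0.174 and 2.37 CPM. In replicate 2 it was lower with LacZ probes (0.174 CPM) and ODD probes (0.192) than in Input (0.244), and higher with EVEN probes (0.539).

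Of 24 hnRNP and other repressor genes, the usual antagonists of SR proteins, 0 were called against Input, with a median of 0.04 and 6 at an unadjusted p under 0.05, near the 24.4% of all genes. With the replicate block 3 were higher, among them Hnrnpa2b1 (0.50, adjusted p 0.0186) and Hnrnpdl (0.40, adjusted p 0.0395), and 2 were lower, among them Ptbp1 (-0.41, adjusted p 0.0136). Of 25 core spliceosome genes 0 were higher and 2 lower, with a median of 0.08. These were Sf3a2, a subunit of the U2 particle (-0.94, SE 0.16, adjusted p 0.0140), and Snrpa, the U1 A protein (-0.58, SE 0.13, adjusted p 0.0392). The block gave 1 higher, Snrnp70 of the U1 particle (0.61, adjusted p 0.00380), and 4 lower. Of 19 genes of mRNA export and nonsense-mediated decay 2 were higher, Thoc1 of the THO complex (0.96, SE 0.23, adjusted p 0.0426) and the decay factor Upf3b (0.75, SE 0.17, adjusted p 0.0342), and 5 were higher with the block, among them Upf2 (0.69, adjusted p 0.0119). Between the Lhx1os and the LacZ probes (mean of both sets), 0 genes of the 5 lists were called, and 0 at an unadjusted p under 0.05. Between the experiments, 8 of the 26 SR-related genes were called higher in replicate 2 and 0 lower, near the 27.4% of all genes. The largest was Luc7l3 at 0.77 (SE 0.11, adjusted p 0.00302). For the kinases 6 were higher, with Clk1 at 0.73 (adjusted p 0.00191) and Clk2 at 0.62 (adjusted p 0.00196), and 1 was lower, Srpk3 at -2.02 (adjusted p 0.0151). Of the 24 hnRNP and other repressor genes 1 was higher and 0 lower. Among the 25 core spliceosome genes 4 were higher and 1 lower, and among the 19 export and decay genes 1 was higher and 0 lower. These 3 lists were each below the 27.4% of all genes.

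The members did not follow 1 profile over the 8 libraries. On centred log2(CPM + 1) values, Srsf5 and Srsf11 were the pair most alike (Pearson's r 0.97), followed by Srsf2 and Srsf6 (0.93), while Srsf10 and Srsf11 were the most opposed (-0.88). Averaged over the 10 genes, the centred profile was lowest in Input replicate 1, at -0.13, and between -0.03 and 0.07 in the other 7 libraries. The 5 other genes whose profile was most like this mean were Adrm1 (r 0.97), Washc3 (0.95), Cops3 (0.95), Eif2b3 (0.94) and Mrps10 (0.93). None of them is in the 5 lists. These correlations are over 8 libraries that share experiments and groups.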

How the data were processed

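The authors deposited whole-number counts per Ensembl gene, with gene lengths, and FPKM values, which equalled count over length and column total (largest relative difference 4.44e-16). Per the submitters' processing notes, cutadapt 3.2, Bowtie2 2.4.2, Picard, HTSeq 0.13.5 and GRCm38 were used, in roles not given in the sources used here. Per the labels' protocols, libraries were stranded and ribosomal RNA was removed. Of 55471 identifiers 55230 were in GENCODE M21, and 99.1% of those had the deposited length, so its coordinates, transcripts and sequences were used.

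Counts were tested with edgeR 4.0.16 (R 4.3.3), quasi-likelihood, two-sided, TMM, default low-count filter, all 8 libraries, group as the term. P-values were adjusted by Benjamini-Hochberg over 16524 genes at 0.05. The experiment comparison used group and replicate. DESeq2 1.42.0 and limma 3.58.1 on log2(FPKM + 1) of the deposited FPKM were alternatives. CPM used TMM-scaled totals, with factors from 0.965 to 1.03. Replicates of a group differed beyond counting noise (chi-square per degree of freedom 34.5 to 67.4). The labels give the replicate as a batch of 2 independent experiments, so numbers pair libraries. Deviations of same-numbered libraries correlated at 0.506 to 0.708 over 6 pairs of groups. Counts are reads, not molecules, so precision is limited by more than counting.

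The members and lists were chosen with earlier results of these data known. All members are named. From each list, up to 3 called genes per comparison with the largest change could be named, and the 5 non-members most like the members' mean profile. One masked coding stretch is not reported here.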

Additional observations from a re-analysis of the deposited data

Results flagged for a closer look

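The difference between the experiments in Srsf9 was not the same in the pull-downs as in Input. The replicate change in the pull-downs minus that in Input was -1.03 on the log2 scale (adjusted p 0.0209 by edgeR), and the test was one of the difference itself. The Input of each experiment was a single library, so the p-value does not measure the spread of Input. Srsf9 was lower in replicate 2 in the LacZ, ODD and EVEN pull-downs and higher in replicate 2 in Input.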

How the results depend on the processing

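With 2 libraries per group the 95% intervals are wide, so small changes were not resolved. In the comparisons among pull-downs, 0 SR genes were called in every alternative run. Against Input the count moved from 0 with the replicate block to 1 in EVEN and in the mean of the pull-downs (Srsf5). With the block and the GC trend of all genes removed it was 2 in LacZ, ODD and EVEN and 3 in the mean, and with the block and the trend of coding genes, chosen after seeing the data, it was 1 in the mean. The block changed no other call of a member; its calls in the lists of related genes are in the report. Between the experiments the count of 2 ranged from 0 (without an ODD or an EVEN library) to 4 (without an Input library), and was 3 with DESeq2 or no filter, where Srsf9 was added. The causes were not tested. The Srsf9 difference between groups was called in each of the 12 alternatives run, with adjusted p from 0.00253 to 0.0466. It holds the replicate as a term already and could not be fitted without an Input library. All 12 alternatives therefore rest on the same Input libraries. The median low-complexity share fell to 1.01% at dustmasker level 30.

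The values below changed sign. Except for Srsf3 and Srsf5 with the all-gene GC trend, they were below 0.13 in size in the fits the report gives, and none was called after the change except Srsf1 and Srsf7 with that trend. For the mean of the 3 pull-downs over Input, the log2 fold change was -0.011 for Srsf1 with DESeq2, and -0.011 for Srsf1 with RLE. It was 0.050 for Srsf2 with the filter of 50 counts, and 0.0057 for Srsf2 with limma. The value was -0.040, -0.012 and -0.021 for Srsf1, Srsf6 and Srsf7 without a filter, and -0.087, 0.020, -0.025 and -0.054 for Srsf1, Srsf2, Srsf6 and Srsf7 with the block and the coding-gene GC trend. It was -0.43, 0.16, -0.062, 0.15, -0.15, -0.13 and -0.28 for Srsf1, Srsf2, Srsf3, Srsf4, Srsf5, Srsf6 and Srsf7 with the block and the all-gene GC trend, and 0.0051 for Srsf2 with total library size. Leaving out 1 library gave -0.049 to 0.034 for Srsf1, -0.12 to 0.10 for Srsf2, -0.0080 to 0.049 for Srsf6, -0.053 to 0.078 for Srsf7 and -0.27 to 0.030 for Srsf9. For ODD and EVEN together over LacZ, it was -0.0047 for Srsf6 with DESeq2, and -0.0045 for Srsf6 with RLE. It was -0.023, -0.016, -0.033 and -0.020 for Srsf2, Srsf5, Srsf6 and Srsf10 with limma, and -0.018, -0.0069, -0.033 and -0.018 for Srsf2, Srsf5, Srsf6 and Srsf10 with total library size. Leaving out 1 library gave -0.10 to 0.035 for Srsf1, -0.043 to 0.10 for Srsf2, -0.083 to 0.25 for Srsf3, -0.0035 to 0.12 for Srsf4 and -0.11 to 0.21 for Srsf5. It also gave -0.014 to 0.048 for Srsf6, -0.19 to 0.43 for Srsf9, -0.046 to 0.11 for Srsf10 and -0.10 to 0.33 for Srsf11. Between the experiments, it was -0.0047 for Srsf1 with DESeq2, and -0.0048 for Srsf1 with RLE. It was -0.0060 for Srsf1 without a filter. Leaving out 1 library gave -0.028 to 0.047 for Srsf1 and -0.11 to 0.047 for Srsf4. For the replicate change in the pull-downs against Input, it was 0.032 and 0.0027 for Srsf2 and Srsf5 with DESeq2, and 0.032 and 0.0026 for Srsf2 and Srsf5 with RLE. Leaving out 1 library gave -0.082 to 0.041 for Srsf2.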
